A study of Ovis aries with 62 samples.

Results

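The epidermal differentiation complex is a cluster of genes that encode building blocks of cornified epithelium, and 14 of the 16011 genes in the AUS ventral rumen wall table are gene models of this complex that the authors added to the Ensembl sheep annotation. They were found as the rows whose identifier does not begin with the Ensembl sheep prefix, and they carry working names from Addition08 to Addition46. The tables of the study give a name for 2 of them, Addition41 (SPRR2-like4) and Addition42 (PRD-SPRRII-like1). The product of the other 12 was not given in the sources used here, so they are called by their working names. The levels of the 14 models were set beside those of LIPN (ENSOARG00000014420), a lipase of late epidermal differentiation.

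All samples were ventral rumen wall of adult Merino ewes of 4 sires, fed the same lucerne and oat chaff diet, with 1 library per sheep. The sheep fell into test blocks 1, 2, 3 and 4, which are test periods, with 16, 16, 14 and 16 animals. No sheep received a treatment. The labels gave the block, the live weight, the CH4 production and the DMI of each sheep. Live weight averaged 63.6 kg ± 8.32 (SD, *n* = 62) and CH4 production averaged 24.03 g/d ± 4.72 (SD, *n* = 62). Sheep oz151 of block 3 was left out for DMI and CH4 yield because its labelled DMI of 0.0795 kg/d lies far below that of every other animal, which leaves a mean DMI of 1.20 kg/d ± 0.288 (SD, *n* = 61). Sire is not in the labels, so some sheep are related in a way that no *p* below takes into account.

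The rumen wall is lined by a stratified squamous epithelium that cornifies at its surface, as skin does. In such an epithelium, cells that leave the basal layer switch on genes of the epidermal differentiation complex, among them the small proline-rich (SPRR) proteins and the S100 calcium-binding proteins. Transglutaminases cross-link SPRR proteins into the cornified envelope, the protein shell under the membrane of the dying cell. Lipases such as LIPN are expressed in the uppermost living layers. The sampled wall also holds muscle and connective tissue, and in such samples fewer epithelial cells and less RNA per epithelial cell cannot be told apart.

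Libraries held 4208032 to 12130080 assigned reads with a median of 7923973, and block 1 was the shallowest with a median of 6812020. The deposited values are log2 CPM (reads scaled to library size, on a log2 scale), from which whole reads could be recovered for 100% of low values. All 8 smooth muscle genes examined (MYH11, MYL9, TAGLN, CNN1, CALD1, DES, SMTN and LMOD1) and all 8 matrix genes, which encode collagens, had reads in every library. The mean of the 647 genes of the muscle list of the study, which the study chose on these sheep, was 6.24 ± 0.331 log2 CPM (SD, *n* = 16) in block 1 and 5.82 ± 0.329 (SD, *n* = 46) in blocks 2–4. Levels are compared below within a gene and not between genes, because gene lengths were not used here.

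The added models ranged from genes of high read number in every sheep to genes at or near 0. Addition42 had 2098 to 35483 reads per library with a median of 13342, Addition36 had 3812 to 25369 with a median of 9929, and Addition41 had 382 to 10390 with a median of 2931. These 3 models held 89.9% to 99.3% of the reads of all added models in a library. The 14 models together took 0.361% ± 0.136 of the reads (SD, *n* = 62), with a lowest share of 0.126% and a highest of 0.718%.

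Addition45 and Addition44 also had reads in all 62 sheep, and Addition38 and Addition46 in 61. Addition45 lay between 30 and 3633 reads with a median of 1407. Addition38 ran from 0 to 451 reads with a median of 72, and Addition46 from 0 to 356 with a median of 52.5. Addition44 ran from 13 to 72 reads with a median of 38 and was the steadiest of the 14 models, with an SD of 0.347 on the log2 scale.

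The other 7 models had a median of 10 reads or fewer. Addition12 had a median of 10 reads and no read in 1 sheep, and Addition32 had a median of 6 reads and at least 1 read in every sheep. Addition08 had no read in 18 sheep, Addition14 in 18, Addition15 in 19, Addition43 in 32 and Addition17 in 44. Only 5 of the 14 models (36, 41, 42, 44 and 45) had more than 3 reads, the level that a count of 0 still allows, in all 62 libraries, and that floor covers counting error only. For the models near 0, a log2 value moves in steps of single reads.

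**Figure D1:**
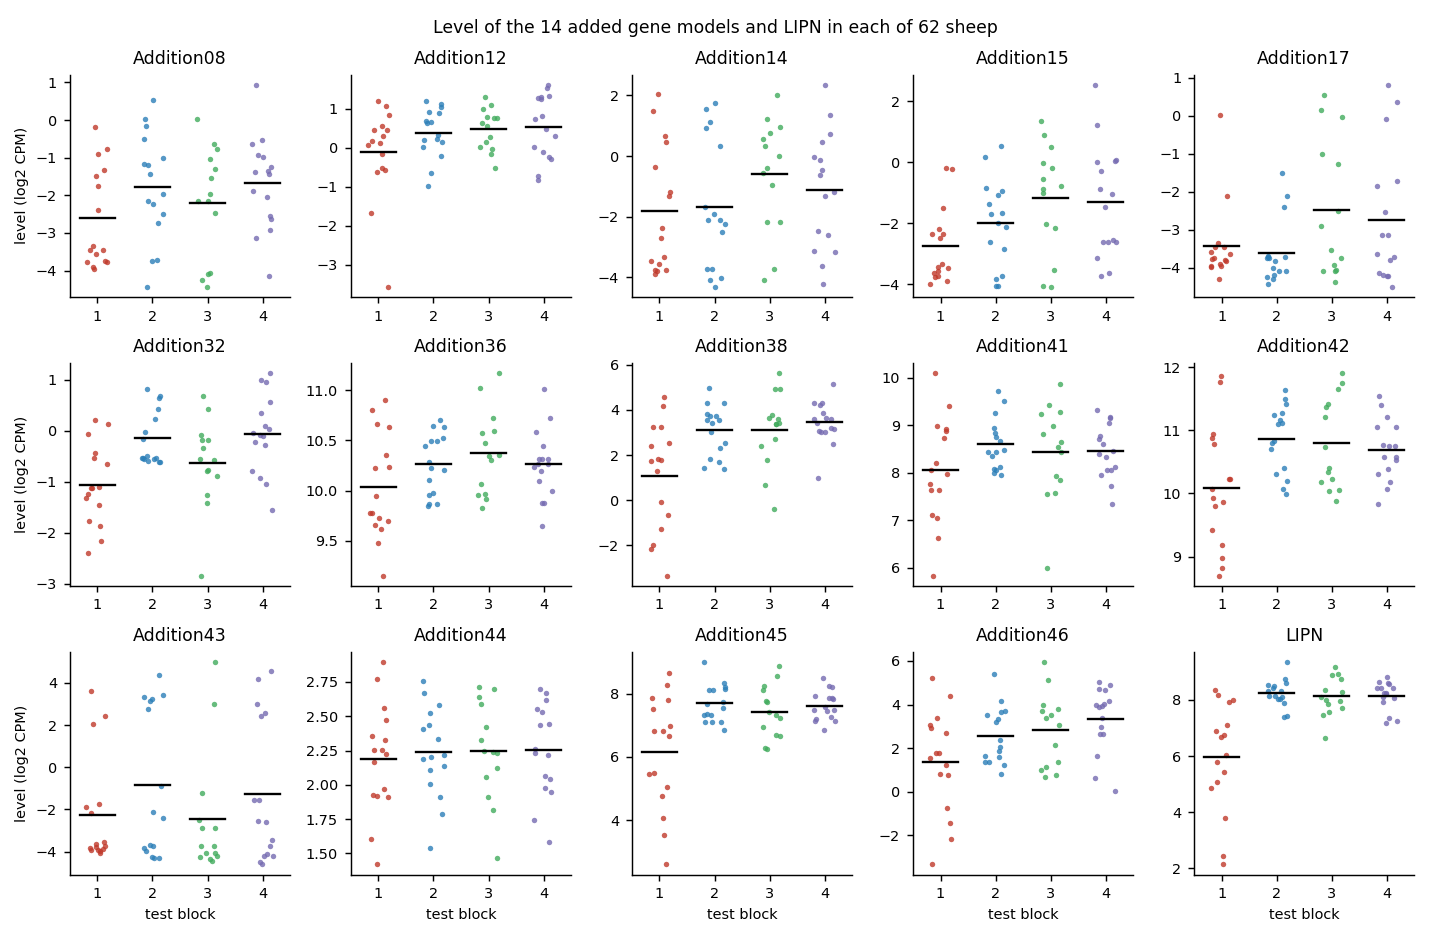
Level of each added gene model and of LIPN (log2 CPM, vertical axis, scaled to each gene) in the 16, 16, 14 and 16 sheep of blocks 1 to 4 (horizontal axis). Points are sheep and black lines are block means. The points of block 1 reach lowest in Addition38, Addition42, Addition45, Addition46 and LIPN, and Addition43 falls into a low and a high cloud in every block.

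Each model was also set beside the gene of the table whose level was most like it over the 62 sheep. Models that cover the same stretch of genome are not counted independently, in a way that depends on how reads were assigned. For 6 models this gene had an *r* above 0.9. Addition44 had exactly the same number of reads as ENSOARG00000006529 in 62 of 62 libraries, and no other pair of rows in the table was identical. Every value given for Addition44 is therefore also the value of that Ensembl gene, and the 2 rows are 1 measurement. This Ensembl gene and the other unnamed identifiers given as most like a model were singled out after their values were seen.

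Addition36 followed ENSOARG00000000342 with *r* = 0.991, and its reads were 1.67 to 2.03 times those of that gene in all 62 libraries. Addition42 followed ENSOARG00000000351, which the study names ~CIR1, with *r* = 0.995, and had 0.698 to 0.891 times its reads. Addition14 had as many reads as ENSOARG00000000245 in 31 libraries and more in the other 31, never fewer (*r* = 0.934). Whether the authors counted reads by strand, and whether these models overlap, is not given in the sources used here, so the separate levels of these pairs are uncertain.

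**Figure D2:**
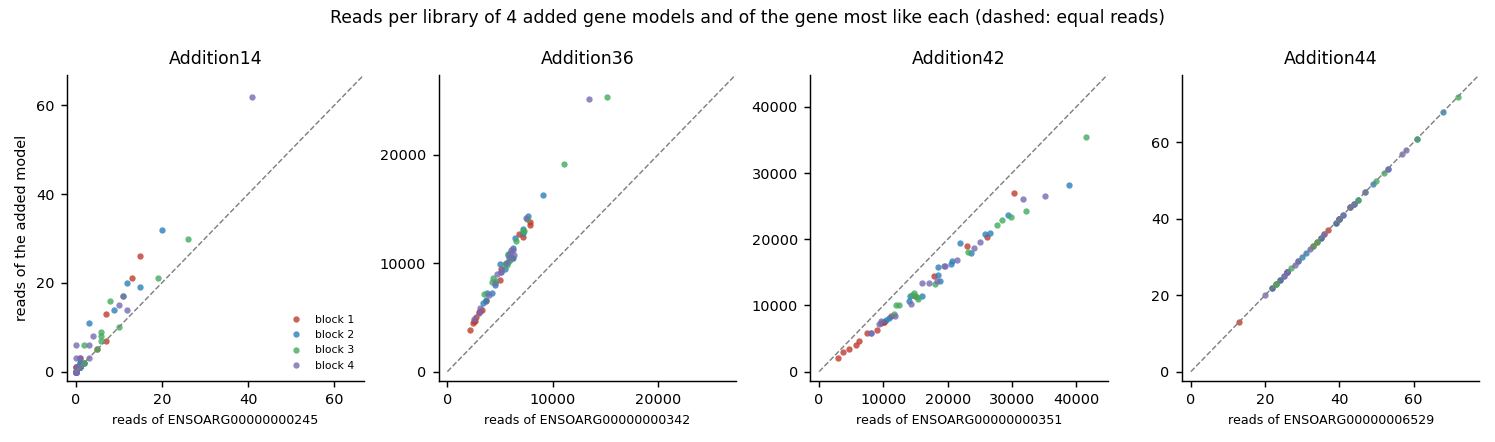
Reads per library of Addition14, Addition36, Addition42 and Addition44 (vertical axes) against the reads of the gene most like each (horizontal axes), 1 point per sheep in the color of its block. Addition44 lies on the dashed line of equal reads in all 62 sheep, and Addition36 lies above it and Addition42 below it in all 62.

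The other models with a close partner followed SPRR genes. Addition41 was most like SPRR2-like2 (*r* = 0.931) and also like SPRR2-like1 (*r* = 0.808), both SPRR genes of the complex with Ensembl identifiers. Addition45 was most like ENSOARG00000025193 (*r* = 0.942) and PRD-SPRRII (*r* = 0.935), and Addition42 also followed PRD-SPRRII (*r* = 0.848). SPRR genes are similar in sequence, so reads of 1 copy may have been counted for another or dropped as not unique.

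Addition38 and Addition46 were most like ENSOARG00000025193 too (*r* = 0.858 and 0.785). The models not yet named here had looser likenesses, the highest being an *r* of 0.667 for Addition15. Among the 3 most like genes of each model, those with a symbol and not yet given were RAB11FIP1 for Addition32 (*r* = 0.567), POR for Addition36 (*r* = 0.761) and CHP1 for Addition43 (*r* = 0.494). The highest *r* of Addition08 with any gene was 0.440. These values describe 62 libraries that share depth and tissue makeup, and no test was made of them.

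Among themselves, the models varied together to different degrees. Over 78 pairs, with Addition43 left out, *r* had a median of 0.310 and ran from -0.108 to 0.853. The highest were Addition38 with Addition45 (0.853), Addition42 with Addition45 (0.845) and Addition45 with Addition46 (0.750). The 10 pairs among Addition38, Addition41, Addition42, Addition45 and Addition46, a set singled out after the values were seen, had a median *r* of 0.739, and of 0.699 with block means removed. Addition44 stood apart from the rest, with *r* from -0.108 to 0.154 over its 12 pairs.

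Addition14, Addition15 and Addition17, all of low level, were highest of all 62 in the same sheep, oz218 of block 4, with 62, 71 and 21 reads. Addition15 had an *r* of 0.571 with Addition17 and of 0.488 with Addition14, while Addition14 and Addition17 had an *r* of 0.257. Addition14 had a higher *r* with Addition41 (0.583) and Addition46 (0.532) than with either. The Addition15 value of oz218 lay 1.20 log2 units above that of the next sheep.

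Addition43 had 2 separate ranges of level. In 46 sheep it had 0 to 4 reads, with none in 32 of them, and in 16 sheep it had 34 to 269 reads (4.12 to 31.6 CPM), with no sheep between 4 and 34 reads. The gap of 2.97 log2 units was the widest between neighboring sheep in any of the 14 models. Sheep above the gap were found in every block, 3 of 16 in block 1, 6 of 16 in block 2, 2 of 14 in block 3 and 5 of 16 in block 4. Because the values form 2 clouds, no correlation of this model with LIPN, the traits or the other models is given.

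The models were next compared between block 1 and blocks 2–4, the contrast that the study itself drew among the AUS sheep. Of the 14 models, 7 were lower in block 1 and 0 were higher (limma over all 16011 genes, Benjamini-Hochberg adjusted *p* under 0.05). Of all genes tested, 19.4% were lower and 17.2% were higher in block 1. The median difference of the 14 models was -0.71 log2, against -0.01 over all genes.

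Addition38 had the largest of these differences. Its log2 CPM was lowest at -3.34, had a median of 1.76 and was highest at 4.58 in block 1, against -0.37, 3.43 and 5.61 in blocks 2–4. Block 1 held 5 sheep below every sheep of the other blocks, and the ranges otherwise overlapped. Those 5 sheep had 3 reads or fewer of it, so their log2 values lie at the floor and move in steps of single reads. The median was 3.33 CPM in block 1 and 10.68 CPM in blocks 2–4. Addition38 fell by 2.14 on the log2 scale (SE 0.45, limma adjusted *p* = 0.000142).

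Addition45, the model most like PRD-SPRRII, ran in block 1 from 2.59 through a median of 6.74 to 8.67 log2 CPM. In blocks 2–4 it ran from 6.27 through a median of 7.53 to 9.004. In block 1, 7 of 16 sheep lay below the lowest sheep of blocks 2–4, and others lay as high as the rest. The difference was -1.44 log2 (SE 0.30, limma adjusted *p* = 9.6e-05).

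Addition46 and Addition42 also reached lower in block 1. Addition46 ran from -3.34 through 1.67 to 5.24 log2 CPM in block 1 and from 0.02 through 3.26 to 5.94 in blocks 2–4, a difference of -1.54 (SE 0.49, limma adjusted *p* = 0.0102). Addition42 ran from 8.70 through 9.997 to 11.86 in block 1 and from 9.83 through 10.76 to 11.90 in blocks 2–4, a difference of -0.69 (SE 0.20, limma adjusted *p* = 0.00418). Block 1 held 4 sheep below all others in Addition46, each with 3 reads or fewer of it and so at the floor. It held 6 such sheep in Addition42, which had at least 2098 reads in every library. ENSOARG00000000351, the Ensembl gene that Addition42 follows, gave -0.67 (limma adjusted *p* = 0.00375) and is no separate evidence.

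The other 3 models that passed had few reads in most sheep. Addition15 had no read in 9 of 16 sheep of block 1 and in 10 of 46 sheep of blocks 2–4, a difference of -1.27 log2 (SE 0.45, limma adjusted *p* = 0.0214). Addition32 had a median of 2.5 reads in block 1 and 6 in blocks 2–4, a difference of -0.78 (SE 0.22, limma adjusted *p* = 0.00383). Addition12 had medians of 7.5 and 11 reads, a difference of -0.58 (SE 0.24, limma adjusted *p* = 0.0488). The call of Addition15 was lost with library size in the fit, and that of Addition12 in 34 of 62 fits that each left out 1 sheep. With normal scores of ranks in place of levels both were lost (adjusted *p* = 0.0583 and 0.0805), while Addition36 passed (adjusted *p* = 0.0474).

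The remaining 7 models did not pass. Addition41 (SPRR2-like4) differed by -0.44 log2 (SE 0.23, limma adjusted *p* = 0.131) and Addition36 by -0.26 (SE 0.11, limma adjusted *p* = 0.0639). Without sheep oz39 of block 1, which has the highest Addition41 of all sheep, both passed, with adjusted *p* of 0.0391 and 0.0214, and Addition36 also passed without oz40, oz61, oz73, oz152 or oz175. Addition08, Addition14, Addition17 and Addition43 differed by -0.48 to -0.74 with SE of 0.39 to 0.87. Addition44 gave -0.06 (SE 0.11).

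**Figure D3:**
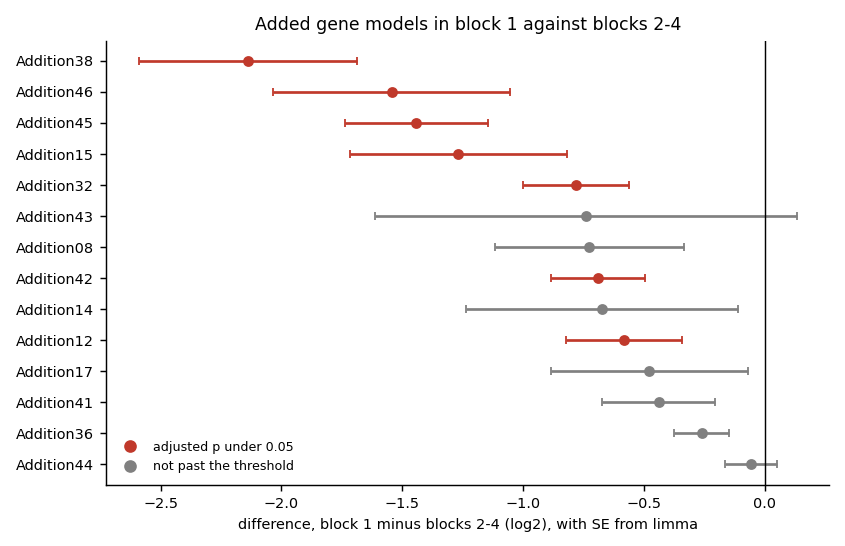
Difference of each added gene model between block 1 and blocks 2–4 (log2, horizontal axis), with the SE from limma as bars. The 7 models in red passed the adjusted threshold and all lie below 0, from -2.14 for Addition38 to -0.58 for Addition12. Addition44 lies at -0.06.

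Other genes of cornification were lower in block 1 too, and muscle and matrix genes were higher. Of the 8 complex genes with Ensembl identifiers, 5 were lower and 0 higher. They were PRD-SPRRII (-1.64), the SPRR-like gene ENSOARG00000025188 (-0.74), S100A9 (-0.64), S100A12 (-0.60) and S100A8 (-0.57). The last 3 encode calcium-binding proteins, and whether leukocytes of the wall add to their levels was not tested. SPRR2-like2 (-0.56), SPRR2-like1 (-0.42) and S100A2 (-0.12) did not pass.

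Of 18 late differentiation genes outside the complex, 13 were lower and 0 higher. The largest differences were those of the keratin KRT78 (-1.62), ENDOU (-1.31), the membrane proteases Tmprss11g (-1.27), TMPRSS11B (-1.11) and TMPRSS11A (-0.92), and the epithelial transcription factor ELF3 (-0.88). All 8 smooth muscle genes and 5 of the 8 matrix genes were higher in block 1. With the muscle mean in the fit, 2 models were still called, Addition38 (-2.12, limma adjusted *p* = 0.00330) and Addition45 (-1.24, limma adjusted *p* = 0.00788). The other 5 did not pass there, namely Addition46 (-1.41, adjusted *p* = 0.0808), Addition42 (-0.55, 0.0842), Addition32 (-0.54, 0.138), Addition15 (-0.99, 0.192) and Addition12 (-0.50, 0.230). The share of all genes called in that fit was not counted.

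Sheep oz89 and oz171 of block 1 were the 2 lowest of all 62 in Addition38, Addition42, Addition45, Addition46 and LIPN. Without both, 4 models remained lower, namely Addition32 (-0.74), Addition38 (-1.59), Addition42 (-0.50) and Addition45 (-0.9998), while Addition12, Addition15 and Addition46 did not pass. Here too the share of all genes called was not counted.

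The spread of the block 1 sheep was compared with that of the other sheep. The mean absolute deviation from the block median was larger in block 1 for 1 model, Addition45, by 0.94 log2 (SE 0.19, limma adjusted *p* = 0.000365). Of all genes tested, 2.16% had a wider spread in block 1. Addition45 had an SD of 1.79 (*n* = 16) in block 1 and of 0.626 (*n* = 46) in blocks 2–4. Addition38 had SDs of 2.39 and 1.22 and missed the threshold (limma adjusted *p* = 0.0550). PRD-SPRRII, the SPRR gene that Addition45 follows, also spread more in block 1 (0.93, limma adjusted *p* = 8.56e-05), as the 1 gene called of the 8 complex genes with Ensembl identifiers, and so did 9 of the 18 late differentiation genes outside the complex. As limma takes 1 variance for both groups, its SE of the block difference is too small for models with a wider spread in block 1. With a variance for each group (Welch), the SE was 0.624 in place of 0.45 for Addition38, 0.458 in place of 0.30 for Addition45, 0.629 in place of 0.49 for Addition46, 0.256 in place of 0.20 for Addition42 and 0.308 in place of 0.24 for Addition12, whose difference is then under 2 SE.

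Among blocks 2, 3 and 4, none of the 14 models differed (moderated *F* test of limma, 0 of 14 called, and 0 of 14 at an unadjusted *p* under 0.05). Of all genes tested, 0.00625%, a single gene, passed this test and 1012 genes had an unadjusted *p* under 0.05. The lowest unadjusted *p* of a model were those of Addition17 (0.0739) and Addition32 (0.102).

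Each model was then set against LIPN over all 62 sheep. LIPN itself ran from 2.14 through a median of 6.36 to 8.37 log2 CPM in block 1 and from 6.65 through 8.22 to 9.34 in blocks 2–4. Block 1 held 8 sheep below every other sheep. So most of the range of LIPN came from block 1.

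Of the 14 models, 10 rose with LIPN and 0 fell (limma slope on LIPN, adjusted *p* under 0.05). Of all genes tested, 25% rose with LIPN and 23.1% fell. Addition45 had the closest relation, with *r* = 0.781 and rho = 0.293 (permutation *p* = 1e-05, the smallest possible with 100000 permutations, and 0.0213). Its slope was 0.95 log2 per SD of LIPN (SE 0.09, limma adjusted *p* = 3.46e-13). Without the 2 sheep farthest from the median of LIPN, oz171 and oz89, *r* was 0.625. The permutations here and below ignored block, and with block means removed *r* was 0.680.

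Addition38 had *r* = 0.683 and rho = 0.277 (permutation *p* = 1e-05 and 0.0309), with a limma adjusted *p* of 3.55e-09. Addition42 had *r* = 0.574 and rho = 0.227 (permutation *p* = 1e-05 and 0.0771), with a limma adjusted *p* of 3.29e-06. Without oz171 and oz89, *r* was 0.514 for Addition38 and 0.409 for Addition42. With block means removed, *r* was 0.5355 and 0.4455. In each of these models *r* was far above rho, the correlation of ranks.

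Addition46, Addition41 and Addition36 passed the test with *r* of 0.536, 0.429 and 0.420 and rho of 0.169, 0.0281 and 0.227. Without oz171 and oz89, *r* was 0.296 for Addition46, 0.165 for Addition41 and 0.305 for Addition36, so the relation of Addition41 rested on these sheep. Addition32 and Addition12 had *r* of 0.484 and 0.431 with rho of 0.359 and 0.278, and these held without the 2 sheep (*r* = 0.492 and 0.454). Addition08 (*r* = 0.328) and Addition15 (*r* = 0.324), both at or near 0 reads in many sheep, passed with limma adjusted *p* of 0.0207 and 0.0206. Addition14, Addition17, Addition43 and Addition44 did not pass.

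Within blocks, the relation to LIPN was seen in block 1 for the set of models singled out above after the values were seen. In block 1 (*n* = 16), *r* was 0.902 for Addition45, 0.790 for Addition38, 0.789 for Addition42, 0.776 for Addition46 and 0.767 for Addition41. For the other models called, *r* in block 1 ran from 0.425 (Addition08) to 0.650 (Addition15). Addition12 had its highest *r* in block 2 (0.626) and Addition08 in block 3 (0.463). For Addition45, *r* was 0.147, -0.0769 and -0.377 in blocks 2, 3 and 4. Over the 46 sheep of blocks 2–4, *r* was -0.0658 for Addition45, -0.0042 for Addition38, -0.162 for Addition42, -0.154 for Addition46 and -0.252 for Addition41. LIPN had an SD of 1.93 in block 1 and of 0.543 in blocks 2–4, so its range was narrow outside block 1.

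In the fit on blocks 2–4 alone, none of the 10 models rose with LIPN (0 called). Of the 10 slopes, 7 were below 0, none of them past the threshold. Of all genes tested, 9.37% rose with LIPN in that fit and 10.2% fell. The 1 model called there was Addition17, which fell with LIPN by 0.91 log2 per SD (SE 0.19, limma adjusted *p* = 0.00100, *r* = -0.582). As 10.2% of all genes also fell in that fit, 1 fall among all the added models does not exceed that share. An SD of LIPN was 0.543 log2 in these 46 sheep and 1.44 over all 62. Slopes per SD from this fit and from the fit over all sheep therefore differ in unit. The *r* of Addition17 was -0.274, -0.806 and -0.504 in blocks 2, 3 and 4 and -0.0129 in block 1. Addition17 had 0 reads in 30 of these 46 sheep, and no sheep of block 2 had more than 3 reads of it. With ranks in place of levels Addition17 also fell with LIPN over all 62 sheep, while the deposited log2 values gave an adjusted *p* of 0.626.

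**Figure D4:**
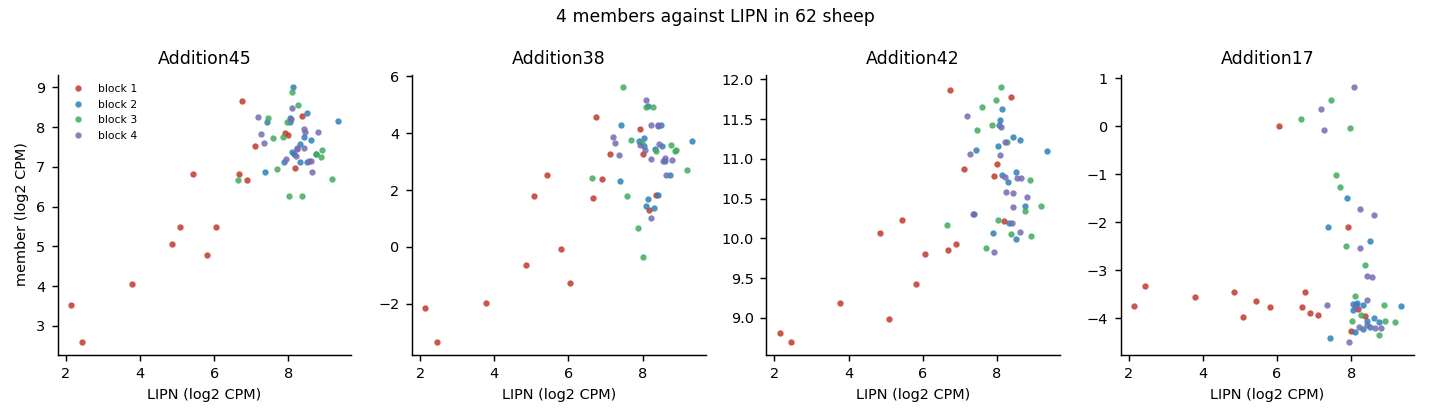
Level of Addition45, Addition38, Addition42 and Addition17 (log2 CPM, vertical axes) against LIPN (log2 CPM, horizontal axes), 1 point per sheep in the color of its block. The red points of block 1 (*n* = 16) trace the rise in the left 3 panels, with *r* of 0.902, 0.790 and 0.789, and in blocks 2–4 Addition17 is higher where LIPN is lower.

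The difference of the slopes was tested as such. The slope on LIPN was higher (more positive) in block 1 than in blocks 2–4 for 4 models and lower for 0, against 3.75% and 2.03% of all genes (limma interaction term). The 4 were Addition45 (difference 1.34 log2 per SD of LIPN, SE 0.29, limma adjusted *p* = 0.00434), Addition17 (2.30, SE 0.54, limma adjusted *p* = 0.00869), Addition41 (1.13, SE 0.30, limma adjusted *p* = 0.0186) and Addition42 (0.83, SE 0.25, limma adjusted *p* = 0.0357). In Addition17 the difference came with a negative slope in blocks 2–4 and a nearly flat one in block 1 (*r* = -0.0129), and in the other 3 models with a positive slope in block 1. Addition17 had 0 reads in 14 of 16 sheep of block 1 and more than 3 in only 1. Its block 1 slope was thus poorly measured, and a changed relation to LIPN cannot be told from a lack of reads. Addition46 (1.93, SE 0.64, limma adjusted *p* = 0.0552) and Addition38 (1.41, SE 0.56, limma adjusted *p* = 0.116) missed the threshold.

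Of the 8 complex genes with Ensembl identifiers, 8 rose with LIPN and 6 had a higher slope in block 1 than in blocks 2–4. Of the 18 late differentiation genes outside the complex, 15 rose and 6 had a higher slope in block 1. Of the 8 smooth muscle genes 8 fell with LIPN, and of the 8 matrix genes 6, and in block 1 the slope was also higher for 3 smooth muscle genes and 1 matrix gene. With the muscle mean in the fit, 6 of the added models rose with LIPN, namely Addition12, Addition38, Addition41, Addition42, Addition45 and Addition46. With block in the fit 7 did, these and Addition36. How many of all genes rose with LIPN in these fits was not counted.

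The models were also set against the traits. None of the 14 models passed the test for live weight, CH4 production, DMI or CH4 yield (limma, 0 of 14 called in each). Over all genes 0.0187% passed for live weight, 0.0125% for CH4 production, and 0% for DMI and 0% for CH4 yield. At an unadjusted *p* under 0.05 there were 1318, 1449, 1899 and 1521 genes. The traits were correlated with 13 models each, 52 relations in all.

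Addition14 came closest, with CH4 production. It had 0 to 62 reads, with a median of 2.5, and its level had a slope of -1.01 log2 per SD of CH4 production (SE 0.22, unadjusted *p* = 1.71e-05, limma adjusted *p* = 0.0685). Pearson's *r* was -0.504 and rho -0.488 (permutation *p* = 7e-05 and 0.00011), and *r* was -0.473 without oz132 and oz175, the 2 sheep farthest from the median of CH4 production. The labels give oz151 and oz224 the same CH4 production of 23.9 g/d, both were kept, and without them the slope was -1.03 (limma adjusted *p* = 0.0681). Within blocks 1, 2, 3 and 4, *r* was -0.454, -0.664, -0.126 and -0.524, below 0 in 4 of 4 blocks. Its most like gene, ENSOARG00000000245, with as many or fewer reads in every library, gave -0.79 per SD (limma adjusted *p* = 0.169).

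**Figure D5:**
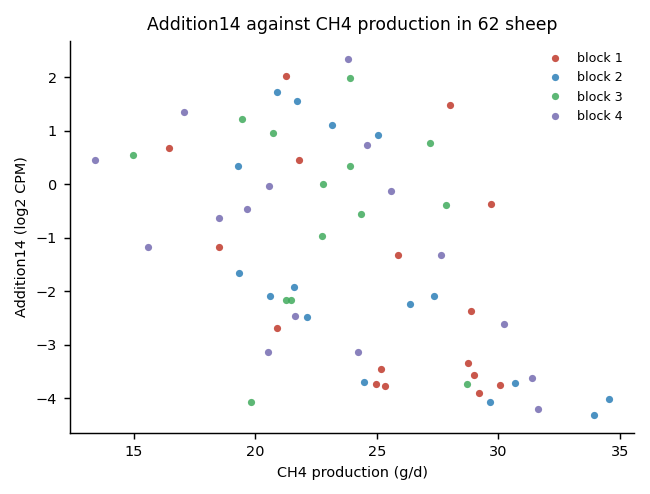
Level of Addition14 (log2 CPM, vertical axis) against CH4 production (g/d, horizontal axis), 1 point per sheep in the color of its block (*n* = 62). The points spread widely at low and middle CH4 production and lie low at its upper end, and *r* over all sheep is -0.504 with an adjusted *p* of 0.0685.

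Its relation to live weight (*r* = -0.395, rho = -0.406, permutation *p* = 0.00145 and 0.00115, limma adjusted *p* = 0.176) and to DMI (*r* = -0.396, rho = -0.391, *n* = 61, permutation *p* = 0.00158 and 0.00193, limma adjusted *p* = 0.159) failed the correction over all genes. The paper attributes variation in CH4 production mainly to DMI, so the relations to CH4 production and to DMI are not separate evidence. With CH4 yield the *r* of Addition14 was -0.0112 (*n* = 61). Leaving out the 2 farthest sheep gave *r* of -0.403 for live weight and -0.381 for DMI, and *r* was below 0 in every block for both.

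Addition46 gave the next lowest *p* with CH4 production (*r* = -0.368, rho = -0.345, permutation *p* = 0.00347 and 0.0064, limma adjusted *p* = 0.257), and *r* was -0.218, -0.488, -0.382 and -0.364 within blocks 1 to 4. Addition41 followed (*r* = -0.319, rho = -0.393, permutation *p* = 0.012 and 0.00182, limma adjusted *p* = 0.359), with *r* of -0.369, -0.423, -0.175 and -0.436 within blocks. Without the 2 farthest sheep these were -0.355 and -0.346. Addition45 and Addition38, the models closest to LIPN, had *r* of -0.177 and -0.150 with CH4 production and limma adjusted *p* of 0.736 and 0.788. Addition46 also had *r* of -0.3455 with DMI (*n* = 61, permutation *p* = 0.00664) and -0.297 with live weight (permutation *p* = 0.0195). Addition17 had *r* of -0.309 with DMI and -0.305 with CH4 production (permutation *p* = 0.014 and 0.0155). Addition32 went the other way with live weight (*r* = 0.265, permutation *p* = 0.0379).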

How the data were processed

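Ventral rumen wall of 62 AUS sheep was measured by RNA sequencing of stranded, ribosomal RNA depleted libraries. Reads were aligned with TopHat and Bowtie2 and counted with HTSeq, and edgeR and limma are listed in the submitters' processing notes as well. The authors deposited log2 CPM as voom gives them (0.5 added to the reads). Whole reads were recovered from them with a tolerance of 0.01. The stated filter is a CPM above 1 in all samples, yet 4390 of the 16011 genes fell under 1 CPM in a library and 2560 had a library at 0 reads.

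Groups came from the labelled block. Fits used limma 3.58.1 in R 4.3.3 over all genes, with moderated variances that follow the mean level, and were checked on simulated data. Correlations used Python 3.11.15 with 100000 permutations. Every added model is named, as are LIPN, the symbols among the 3 most like genes of each, the complex genes, and the 6 other differentiation genes with the largest block difference. Members and lists were chosen with earlier results of these data known. Symbols covered 1224 genes. None of 5 leukocyte markers could be matched. No sequences or coordinates were used here. Alternatives were another scaling, filter, variance model, covariate or set of sheep.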

Additional observations from a re-analysis of the deposited data

Results flagged for a closer look

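The slope on LIPN differed between block 1 and blocks 2–4 for 4 added models by a limma interaction term. The differences were 2.30 log2 per SD of LIPN for Addition17 (limma adjusted *p* = 0.00869), 1.13 for Addition41 (limma adjusted *p* = 0.0186), 0.83 for Addition42 (limma adjusted *p* = 0.0357) and 1.34 for Addition45 (limma adjusted *p* = 0.00434). LIPN itself had an SD of 1.93 in block 1 and of 0.543 in blocks 2–4. Without oz89 and oz171, the SD of LIPN is that of the remaining sheep and a smaller unit, so sizes are not comparable with those above. In that unit the difference of Addition17 was 1.66 (limma adjusted *p* = 0.0378) and that of Addition45 was 1.01 (limma adjusted *p* = 0.0162). Addition41 and Addition42 missed the threshold (limma adjusted *p* = 0.0819 and 0.0688). Addition17 had 0 reads in 14 of 16 sheep of block 1 and more than 3 in only 1, so its slope there was poorly measured.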

How the results depend on the processing

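Counts of added models called moved by over 1.5 times in few settings. For lower levels in block 1 the count of 7 became 2 with a filter that kept genes reaching 3 CPM in each library, which leaves 4 of the 14 models to test, 2 with the muscle mean in the fit, and 4 without oz89 and oz171. For a wider spread in block 1 it went from 1 to 2 with quantile normalization, Addition38 being added. For CH4 production it went from 0 to 1, Addition14, with the muscle mean in the fit (limma adjusted *p* = 0.0248). For a positive slope on LIPN the count of 10 became 4 with the 3 CPM filter, 6 with ranks, 6 with the muscle mean and 0 in blocks 2–4 alone. There the slopes of 7 models called over all sheep, per SD of LIPN in blocks 2–4, were below 0, none past the threshold. They were -0.36 for Addition15, -0.0043 for Addition36, -0.0051 for Addition38, -0.18 for Addition41, -0.092 for Addition42, -0.041 for Addition45 and -0.23 for Addition46. For a higher slope on LIPN in block 1 the count of 4 became 2, Addition17 and Addition45, without oz89 and oz171. Apart from the smaller number of models or sheep tested, the cause was not tested. The share of all genes called was counted only for the slope on LIPN in blocks 2–4 alone, so the counts in the other settings lack that background.

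Leaving out each sheep in turn gave 6 to 9 models lower in block 1, 1 to 2 with a wider spread, 0 to 1 for CH4 production and 2 to 5 with a higher slope on LIPN in block 1. Addition14 passed for CH4 production without oz218, oz235, oz152, oz166, oz206, oz143 or oz192 (adjusted *p* from 0.0226 to 0.126 over the 62 fits), and Addition41 and Addition42 lost the higher slope without oz141 (adjusted *p* up to 0.0610 and 0.0885). Addition42 also lost it without oz9, oz108, oz155, oz200 or oz224, Addition46 gained it in 12 fits (adjusted *p* from 0.0400), and Addition38 gained the wider spread in 14 (from 0.0233). The 2-sheep omission, the leave-one-out fits and log2(CPM + 1) were chosen after seeing the data. No paired analysis was possible because the labels give no replicate numbers and each sheep was in 1 block. For models near 0 reads, depth limits what could be detected.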
